A study of Mus musculus with 12 samples.

Results

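NRF2, encoded by Nfe2l2, is the transcription factor that turns on a large part of the cell's defence against oxidants, and KEAP1 is the adaptor that holds NRF2 in the cytoplasm and delivers it for degradation until oxidants or reactive chemicals modify KEAP1. Its targets make and use glutathione, reduce peroxides and quinones, conjugate reactive compounds and bind iron. Thioredoxins, peroxiredoxins, superoxide dismutases, catalase and the metal-binding metallothioneins work beside them, and in heart muscle, which is rich in mitochondria, the enzymes act both in the cytosol and in mitochondria. A set of 40 such antioxidant and NRF2 target genes was followed in the hearts of MHC-CELFΔ mice. Every probe named for 1 of these symbols was taken, with no regard to its values. Of the 40 genes, 37 had a probe, out of 19014 named genes on the arrays. Gsr (glutathione reductase), Prdx5 and Prdx6 (peroxiredoxins) had no probe named for them.

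MHC-CELFΔ mice carry a hemizygous transgene for a nuclear dominant negative CELF protein, a repressor of the splicing activity of CELF proteins, under the α-myosin heavy chain promoter, so that heart muscle cells make it. The severe line was MHC-CELF∆-10 and the mild line MHC-CELF∆-574, and each stands for 1 transgenic line. Hearts of FVB/N females at 3 weeks of age gave 1 array each, 3 for each line and 3 for its wild type littermates, and the 6 wild type arrays were pooled as the study pooled them. The labels name no other allele or treatment. All levels below are log2 signals of a probe on the array after background correction and normalization, so they can be compared between arrays but not between genes. A difference of 1 on this scale is a 2-fold difference.

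The 37 genes were measured by 72 probe IDs, which make 41 distinct features because many IDs carry identical values. The brightest feature stands for a gene. A gene passed the test, and is said to have risen or fallen, at an adjusted p under 0.05 in limma with Benjamini-Hochberg adjustment over all 30854 features. All 7 measured heart muscle markers of 8 listed lay above the median level of all features (6.25), as did 38 of the 41 features of these genes. The exceptions were Gclc and the dimmer features of Keap1 and Txn2. Median raw intensities ran from 116 to 119 on the severe line arrays and from 103 to 112 on the other 9. The files of 3 arrays (severe line replicates 1 and 2 and replicate 3 of that line's littermates) had another line order and blank lines, and results are also given without them or with the layout as a block.

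The element through which NRF2 binds DNA has the core TGACNNNGC. The core was searched on both strands of the 250 bases before each gene's start in the RefSeq promoter table (GRCm38.p6). It was found in 10.2% of all 32851 promoters and for 9 of the 34 genes of the set with an entry (26.5%, against 11.5% of all 27025 genes). A gene was counted if any of its promoters held the core. The stretches with the core are shown because they are the matches within the 250 bases searched, and whether NRF2 binds them was not tested. The core is in capitals, and each line runs 5′ to 3′ in the direction of its gene.
Gclm, chr3:122245413-122245441, + strand: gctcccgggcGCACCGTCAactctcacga
Gsta3, chr1:21240454-21240482, + strand: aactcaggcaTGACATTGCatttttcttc
Gstm5, chr3:107895802-107895830, + strand: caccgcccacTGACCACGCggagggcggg
Mgst1, chr6:138140461-138140489, + strand: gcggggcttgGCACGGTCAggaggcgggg
Mt2, chr8:94172529-94172557, + strand: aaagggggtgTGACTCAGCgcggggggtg
Nfe2l2, chr2:75704885-75704913, − strand: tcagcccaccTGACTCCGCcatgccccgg
Prdx1, chr4:116685456-116685484, + strand: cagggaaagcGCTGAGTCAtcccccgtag
Sod1, chr16:90220696-90220724, + strand: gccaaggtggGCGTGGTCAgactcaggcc
Txnrd1, chr10:82859104-82859132, + strand: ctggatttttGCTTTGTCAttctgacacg
In Gsta3, Gstm5, Mt2 and Nfe2l2 the core reads in the direction of the gene, and in the other 5 it lies on the other strand.

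The largest changes of the set were in Nqo1 and Gpx3 (below), and their 250-base upstream windows are shown for that reason. Neither holds the core, which says only that these letters are not in these windows.
Nqo1, chr8:107403206-107403455, − strand: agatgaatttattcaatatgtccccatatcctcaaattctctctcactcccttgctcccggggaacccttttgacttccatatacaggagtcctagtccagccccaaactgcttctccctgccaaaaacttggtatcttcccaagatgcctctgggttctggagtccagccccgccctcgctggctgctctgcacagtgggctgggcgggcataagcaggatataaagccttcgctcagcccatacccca
Gpx3, chr11:54902604-54902853, + strand: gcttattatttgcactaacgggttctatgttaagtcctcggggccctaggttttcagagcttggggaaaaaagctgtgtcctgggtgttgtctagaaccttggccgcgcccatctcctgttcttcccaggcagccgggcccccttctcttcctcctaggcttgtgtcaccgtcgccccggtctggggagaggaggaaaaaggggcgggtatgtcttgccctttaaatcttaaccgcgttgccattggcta

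Few of the antioxidant genes changed in either line. The mild line had 3 of the 37 that rose (Nqo1, Gpx4 and Gpx3) and none that fell, where 3.55% of all features passed (1.62% higher and 1.93% lower) and 6.91% of those above the median level. Severe line hearts had 2 that rose (Gpx3 and Gpx1) and 4 that fell (Gstk1, Gstt1, Gstm1 and Txn2), against 3.30% of all features (1.75% higher and 1.56% lower) and 6.40% of those above the median level. Over the 37 genes the mild line's median log2 fold change was 0.06, with 25 positive and 12 negative, and the severe line's was −0.07, with 11 positive and 26 negative, while the median of all features was 0.00 in both. With arrays scaled to a common median in place of quantile normalization, 2 genes passed higher and 1 lower for the mild line, and 1 higher and 8 lower for the severe line. That scaling also took the share of higher calls among all called features of the severe line from 52.9% to 24.0%. Both lines were compared with the same 6 wild type hearts. Between the littermates of the lines none of the 37 passed (0.0875% of all features did). Of the 37, 13 had an unadjusted p under 0.05 there, against 9.96% of all features. The mild line's littermates had the higher mean for 30 of the 37, with a median difference of 0.12. In the difference between the effects against own littermates the median was −0.01, with 18 positive and 19 negative. In whole-heart RNA, fewer cells of a type and less RNA per cell cannot be told apart. By the study's own rule, which asks for a 2-fold change, Nqo1 in the mild line alone passed, against 0.269% of all features, and no gene of the set in the severe line, against 0.136%.

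**Figure D1:**
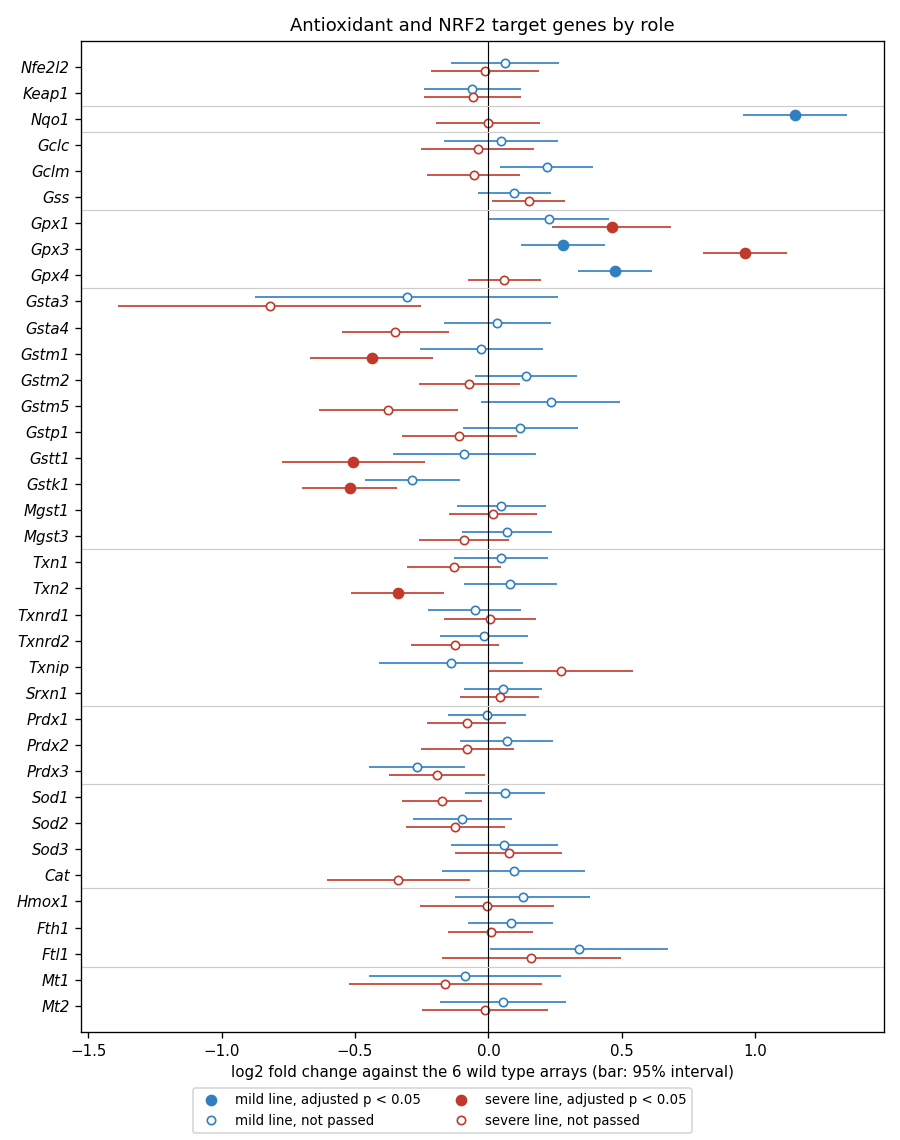
Log2 fold change (x axis) of each of the 37 measured genes (y axis, ordered by role, with grey lines between roles) in the mild line (blue) and the severe line (red) against the 6 wild type arrays, with 95% intervals from limma; filled points passed at an adjusted p under 0.05. Nqo1 stands alone at 1.15 in the mild line, Gpx3 is farthest right in the severe line at 0.96, and 9 of the 10 glutathione transferases lie left of 0 in the severe line.

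The sensor and regulator themselves showed no detected change. Nfe2l2 had a mean level of 7.14 ± 0.11 (SD, n = 6) in wild type, with log2 fold changes of 0.06 (mild) and −0.01 (severe) (limma adjusted p = 0.884 and 0.980). The 95% intervals, from −0.14 to 0.26 and from −0.21 to 0.19, leave room for changes of about that size. Keap1 had −0.06 in both lines (adjusted p = 0.871 for the mild and 0.854 for the severe line). These probes measure RNA, and KEAP1 acts on NRF2 at the level of protein, which the arrays do not measure.

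Nqo1, the quinone reductase that is among the best known NRF2 targets, rose in the mild line and not in the severe line. Its level on the 6 wild type arrays had a lowest value of 7.41, a median of 7.69 and a highest value of 7.83. The mild line arrays read 8.86, 8.75 and 8.85 and those of the severe line 7.61, 7.90 and 7.51. All 3 mild line hearts were thus above every wild type and severe line heart, while the severe line overlapped wild type. The mild line's log2 fold change was 1.15 ± 0.09 (SE, n = 3 against 6), a 2.22-fold rise with limma adjusted p = 2.7e-07. The severe line's was 0.00 with a 95% interval from −0.20 to 0.19 (adjusted p = 1). The lines differed by 1.15 (adjusted p = 4.4e-06), and with each line set against its own littermates the effects differed by 0.98 with an interval from 0.68 to 1.29 (adjusted p = 0.00228). Of all features, 1.37% differed between the lines and 0.266% in the effect against own littermates. Over 25 alternatives the mild line's change stayed between 1.02 and 1.3 and kept its call, with adjusted p from 1e-07 to 2.1e-04.

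Gpx3, Gpx4 and Gpx1, the glutathione peroxidases, are selenium enzymes that reduce peroxides with glutathione. They gave 4 of the 5 increases of the set, Gpx3 and Gpx4 in the mild line and Gpx3 and Gpx1 in the severe line. Gpx3 is the secreted form found in plasma. Its wild type levels had a lowest value of 11.10, a median of 11.36 and a highest value of 11.41, the mild line arrays read 11.66, 11.53 and 11.57, and the severe line arrays read 12.25, 12.21 and 12.35. The 3 groups did not overlap, with the severe line highest. Gpx3 rose in the severe line by 0.96 ± 0.07 on the log2 scale (SE, 1.95-fold, limma adjusted p = 2.2e-07). The mild line's rise was 0.28 ± 0.07 (1.21-fold, adjusted p = 0.0442). The lines differed by −0.68, mild minus severe (adjusted p = 2.0e-04), and the effects against own littermates by −0.83 with an interval from −1.07 to −0.59 (adjusted p = 0.00131). Severe line hearts kept a rise of 0.78 to 1.04 over 25 alternatives and always passed.

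The smaller rise of Gpx3 in the mild line was not stable. It ended in 15 of 25 alternatives, among them the line's own littermates as the only controls (0.21, limma adjusted p = 0.306). Leaving out any of the mild line replicates (adjusted p = 0.227, 0.102 and 0.128 without replicates 1, 2 and 3), replicate 3 among the mild line's wild type hearts (0.0548), replicates 2 or 3 of the severe line's littermates (0.0680 and 0.0853) or severe line replicates 1 or 2 (0.0558 and 0.0517) also ended it, at log2 fold changes of 0.24 to 0.31.

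Gpx4 reduces lipid hydroperoxides within membranes. On the wild type arrays it ran from 11.98 to 12.05 with a mean of 12.01 and an SD of 0.03. The mild line arrays read 12.38, 12.58 and 12.49 and the severe line arrays 12.13, 12.12 and 11.96. The mild line lay above all wild type and severe line hearts, and the severe line overlapped wild type. Gpx4 rose by 0.47 ± 0.07 in the mild line (SE, 1.39-fold, limma adjusted p = 1.4e-04), and this held in all 25 alternatives (0.42 to 0.53). Severe line hearts had 0.06 with an interval from −0.08 to 0.20 (adjusted p = 0.784). The lines differed by 0.41 (adjusted p = 0.00736), a call that ended without mild line replicate 2 (0.36, adjusted p = 0.0501) and without the 3 arrays of the other layout (0.51, adjusted p = 0.0740). The difference between the effects against own littermates was 0.38 and did not pass (adjusted p = 0.265).

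Gpx1 is the peroxidase of the cytosol and mitochondria. Its wild type levels had a lowest value of 12.14, a median of 12.35 and a highest value of 12.65, the mild line arrays read 12.70, 12.67 and 12.43, and the severe line arrays 12.79, 12.67 and 13.04. The severe line lay above all wild type hearts, though its lowest array did so narrowly, and the mild line overlapped wild type. Gpx1 rose by 0.46 ± 0.11 in the severe line (SE, 1.38-fold, limma adjusted p = 0.0192), and the mild line's value was 0.23 (adjusted p = 0.400). The lines did not differ by this test (−0.24, interval −0.49 to 0.02, adjusted p = 0.463). The severe line's call ended without its replicate 1 (0.48, adjusted p = 0.0704) or replicate 3 (0.36, adjusted p = 0.146), against its own littermates alone (0.45, adjusted p = 0.0771), with the layout as a block (0.44, adjusted p = 0.104) and under median scaling (0.28, adjusted p = 0.222).

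**Figure D2:**
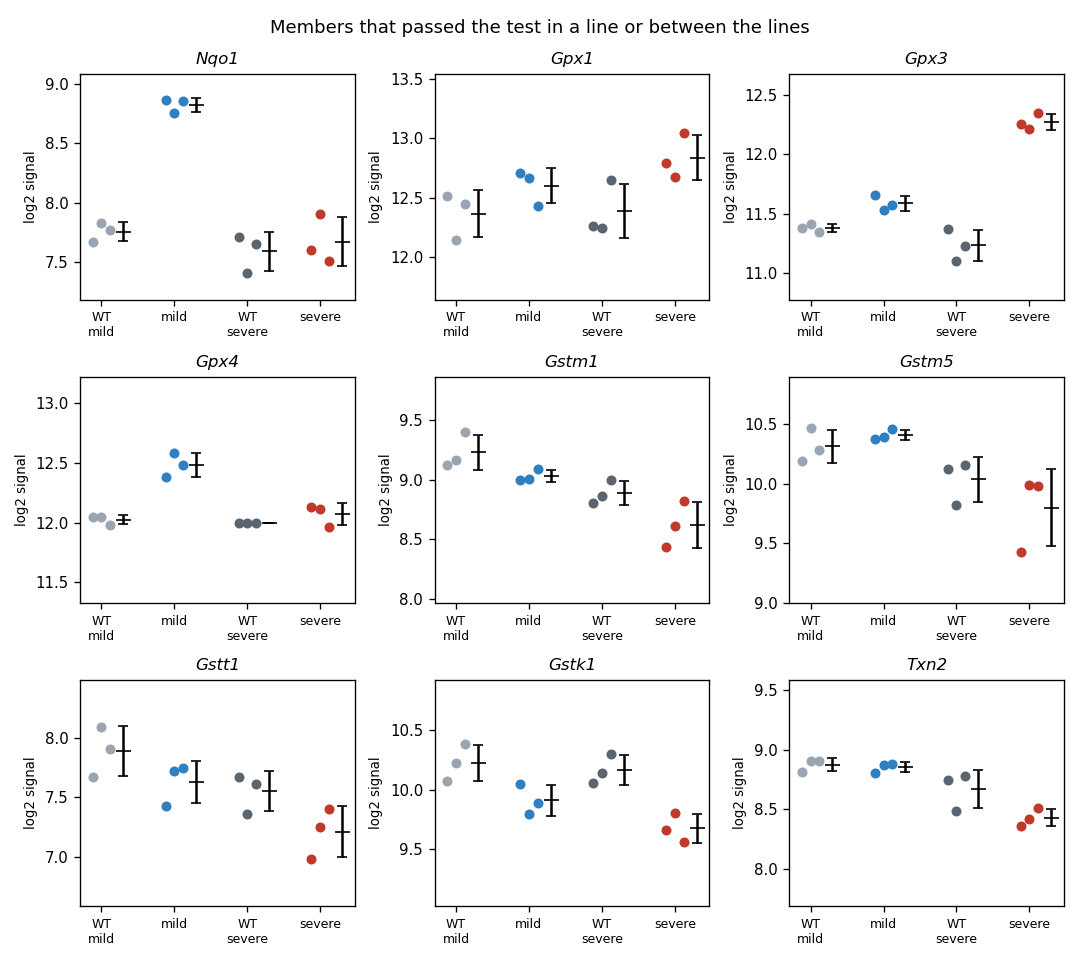
Log2 signal (y axis) of the 9 genes that passed in a line or between the lines, with 1 point per array for the mild line and its wild type littermates and the severe line and its wild type littermates; the black bar beside each group is its mean ± SD (n = 3), and every panel spans the same height on the log2 scale around its own level. The mild line stands apart for Nqo1 and Gpx4, the severe line for Gpx3, and for Gstm1, Gstm5 and Gstt1 the mean of the mild line's littermates is 0.34, 0.28 and 0.34 above that of the severe line's, differences that did not pass.

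The genes for glutathione synthesis did not pass in any comparison. Gclc and Gclm encode the catalytic and modifier subunits of glutamate-cysteine ligase, the rate-limiting enzyme, and Gss the synthase that completes the molecule. Gclm in the mild line, a gene with the core before its start, had a log2 fold change of 0.22 with an interval from 0.04 to 0.39 (limma adjusted p = 0.232). Gss had 0.15 in the severe line (adjusted p = 0.293). The other 4 values of these genes in the lines were between −0.06 and 0.10.

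The glutathione transferases, which join glutathione to electrophiles such as products of lipid peroxidation, leaned lower in the severe line. Of 10 genes, 3 fell (Gstk1, Gstt1 and Gstm1), where 1.56% of all features fell and 6.40% of those above the median level passed. Negative values were found for 9 of the 10, and the median log2 fold change of the 10 was −0.36, against 0.00 for all features. The mild line had none past the test (1 at an unadjusted p under 0.05) and a median of 0.04, with 6 positive and 4 negative, a sign that flips under median scaling and against its own littermates (medians of −0.00 and −0.02). The severe line's median stayed negative, between −0.49 and −0.24, under the other background corrections and scalings, with its own littermates as controls, with the file layout as a block and without the 3 arrays of the other layout. All 10 also had higher mean levels in the mild line's wild type littermates than in the severe line's, by a median of 0.13, and of these 4 had an unadjusted p under 0.05 though none passed. Against its own littermates the severe line's median was −0.25 with 1 gene past the test, and no transferase passed, or had an unadjusted p under 0.05, in the difference between the effects in the lines.

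Gstk1, the transferase of mitochondria and peroxisomes, had the firmest decrease. Its wild type levels had a lowest value of 10.06, a median of 10.18 and a highest value of 10.38. The mild line arrays read 10.05, 9.80 and 9.89 and the severe line arrays 9.66, 9.81 and 9.56. Both lines lay below all wild type hearts, replicate 1 of the mild line narrowly. Gstk1 fell in the severe line by 0.52 ± 0.09 (SE, 1.43-fold, limma adjusted p = 0.00114), a call kept in all 25 alternatives and against own littermates (−0.49, adjusted p = 0.0101). The mild line's value was −0.29 (adjusted p = 0.0824), which passed under median scaling (−0.34, adjusted p = 0.0451) and with array weights (−0.30, adjusted p = 0.0421).

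Gstt1 is the theta class transferase. Its wild type levels had a lowest value of 7.36, a median of 7.67 and a highest value of 8.09, the mild line arrays read 7.43, 7.72 and 7.75 and the severe line arrays 6.98, 7.26 and 7.40. The severe line's highest array was above the lowest wild type array, so the groups overlapped. Gstt1 fell in the severe line by 0.51 ± 0.13 (SE, limma adjusted p = 0.0327), and the mild line's value was −0.09 (adjusted p = 0.869). The lines did not differ by this test (0.42, adjusted p = 0.212), and the effects against own littermates differed by 0.08 (adjusted p = 0.969). The fall did not pass without severe line replicate 1 (−0.39, adjusted p = 0.256) or 2 (−0.53, adjusted p = 0.0774), without replicate 2 (−0.43, adjusted p = 0.0588) or 3 (−0.47, adjusted p = 0.0666) among the mild line's wild type hearts, or against own littermates (−0.34, adjusted p = 0.232). With the layout as a block it was −0.41 (adjusted p = 0.226), and without the 3 arrays of the other layout −0.34 (adjusted p = 0.663).

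Gstm1, a mu class transferase, had wild type levels with a lowest value of 8.80, a median of 9.06 and a highest value of 9.40. The mild line arrays read 9.0, 9.01 and 9.09 and the severe line arrays 8.43, 8.61 and 8.82, of which the last lay within the wild type range. Gstm1 fell in the severe line by 0.44 ± 0.11 (SE, limma adjusted p = 0.0327), and the mild line's value was −0.03 (adjusted p = 0.962). The lines did not differ by this test (0.41, adjusted p = 0.139), and the effects against own littermates differed by 0.07 (adjusted p = 0.962). The call ended without severe line replicate 1 (−0.34, adjusted p = 0.250) or 2 (−0.43, adjusted p = 0.0999), without replicate 1 (−0.42, adjusted p = 0.0598) or 2 (−0.42, adjusted p = 0.0719) among the mild line's wild type hearts, and against own littermates (−0.27, adjusted p = 0.234). The layout block gave −0.35 (adjusted p = 0.226), and leaving out its 3 arrays −0.25 (adjusted p = 0.734).

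Gstm5, a mu class transferase with the core before its start, passed between the lines but against wild type in neither. Its wild type levels had a lowest value of 9.82, a median of 10.17 and a highest value of 10.47, the mild line arrays read 10.38, 10.39 and 10.46 and the severe line arrays 9.43, 9.99 and 9.98. The lines did not overlap, with the mild line higher by 0.61 ± 0.14 (SE, limma adjusted p = 0.0407), while each overlapped wild type (mild line 0.23, adjusted p = 0.484; severe line −0.37, adjusted p = 0.129). This difference ended without severe line replicate 1 (0.43, adjusted p = 0.201) or any of the mild line replicates 1, 2 and 3 (0.62, 0.62 and 0.58, adjusted p = 0.103, 0.105 and 0.157), with the layout as a block (0.52, adjusted p = 0.332) and without its 3 arrays (0.43, not past the test). It also missed with a background offset of 16 (0.63, adjusted p = 0.140), with no background correction (0.59, adjusted p = 0.0519), on the authors' value table (0.58, adjusted p = 0.0530) and with the replicate block (adjusted p = 0.0547). Against wild type the severe line's value passed under median scaling (−0.50, adjusted p = 0.0399) and without replicate 2 of its wild type littermates (−0.45, adjusted p = 0.0327). Several mu class genes resemble each other closely, and whether a probe also binds a relative's RNA was not tested.

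Of the other transferases, Gsta4, which acts on hydroxynonenal, had −0.35 in the severe line and just missed the threshold (limma adjusted p = 0.0549). It passed in 6 of 25 alternatives, among them median scaling (−0.47, adjusted p = 0.00623). Gsta3 had the most negative value, −0.82, but its wild type levels ran from 7.73 to 9.19 and it did not pass (adjusted p = 0.128). It passed without replicate 1 of the severe line's wild type hearts (−0.99, adjusted p = 0.0295). Against own littermates Gsta3 had −0.66 (mild) and −0.47 (severe), against −0.31 and −0.82 with the pooled wild type, and neither passed (adjusted p = 0.360 and 0.535) unless the replicate number was also a block (adjusted p = 0.00291 and 0.0334). Mgst1 was the only one with a positive value in the severe line, at 0.02, and Gstm2, Gstp1 and Mgst3 lay between −0.11 and −0.07. 

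Some markers of smooth muscle were higher in the severe line, and most fibroblast markers had positive values in both lines. Of 7 measured smooth muscle markers 4 had positive and 3 negative values in the severe line, with a median of 0.04. The mild line had 3 positive and 4 negative, with a median of −0.03. Of 9 fibroblast markers 8 were positive and 1 negative in the severe line (Dpt, −0.32, limma adjusted p = 0.258), with a median of 0.18. The mild line also had 8 positive and 1 negative, with a median of 0.16. The mean over the 6 of 7 measured smooth muscle markers above the median level ran from 9.58 to 9.72 in the severe line and from 9.25 to 9.47 in wild type. Tagln, Acta2 and Des rose (0.70, 0.61 and 0.69, limma adjusted p = 6.3e-05, 0.00818 and 2.1e-04), while Myh11 had 0.04 (adjusted p = 0.929) and Cnn1 lay below the median level. Des, which heart muscle also makes, rose in the mild line too, by 0.89 (adjusted p = 8.1e-06), where Acta2 fell by 0.56 (adjusted p = 0.0156) and the mean ran from 9.34 to 9.35. The mean over 8 of 9 fibroblast markers ran from 9.48 to 9.52 in the severe line and from 9.24 to 9.38 in wild type, and mild line hearts ran from 9.36 to 9.63. Of the 9, Col1a1 passed in the severe line (0.48, adjusted p = 0.0114) and none in the mild line, and Postn lay below the median level. All 7 measured adipose markers had negative values in the severe line, with a median of −0.12, and none passed. The mean over the 3 above the median level ran from 6.28 to 6.58 there and from 6.50 to 7.47 in wild type. Of 7 measured heart muscle markers 1 fell in each line and 6 did not pass, with lowest values of −1.11 (mild) and −0.49 (severe). The part of any of these cells in the changes of the antioxidant genes was not tested.

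**Figure D3:**
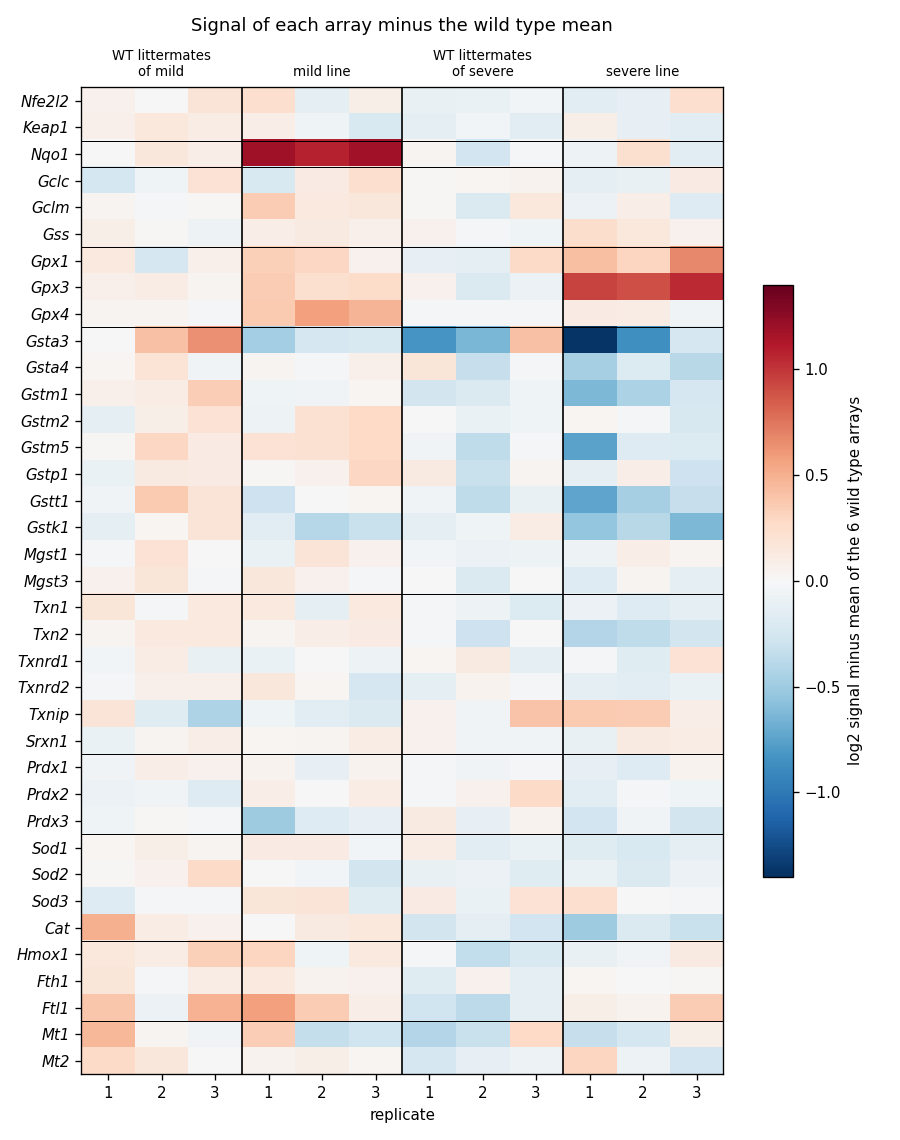
Colour scale of the log2 signal of each array (columns, 3 replicates in each of 4 groups) minus the mean of the 6 wild type arrays for each of the 37 genes (rows, by role); red is above and blue below the wild type mean. Nqo1 is red on all 3 mild line arrays and Gpx3 on all 3 severe line arrays, while Gsta3, Gstm1, Gstm5 and Gstt1 are lowest on severe line replicate 1, and Gsta3 also ran from 7.73 to 9.19 among the wild type arrays.

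In the thioredoxin system, 1 of 6 genes changed. Of all features, 1.56% fell in the severe line, and 6.40% of those above the median level passed there. Txn2, the mitochondrial thioredoxin, had wild type levels with a lowest value of 8.48, a median of 8.79 and a highest value of 8.91. The mild line arrays read 8.81, 8.87 and 8.88 and the severe line arrays 8.36, 8.42 and 8.51. The highest severe line array lay just above the lowest wild type array, and the mild line lay inside the wild type range. Txn2 fell in the severe line by 0.34 ± 0.08 (SE, limma adjusted p = 0.0283), and the mild line, at 0.08 (adjusted p = 0.800), was higher than the severe line by 0.42 (adjusted p = 0.0348). Its dimmer feature had −0.18 in the severe line and did not pass (adjusted p = 0.255).

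The calls of Txn2 were among the least stable of the set. The fall in the severe line ended in 11 of 25 alternatives, including without any of severe line replicates 1 (−0.31, limma adjusted p = 0.176), 2 (−0.34, adjusted p = 0.0914) and 3 (−0.38, adjusted p = 0.0517) or of the 3 wild type hearts of the mild line (−0.33, −0.31 and −0.31 without replicates 1, 2 and 3, adjusted p = 0.0525, 0.0641 and 0.0581). Against own littermates it was −0.24 (adjusted p = 0.202), with the layout as a block −0.32 (adjusted p = 0.148) and without its 3 arrays −0.26 (adjusted p = 0.619). The difference between the lines ended without any of the 6 transgenic arrays, at 0.39 to 0.46 with adjusted p from 0.0525 to 0.155.

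The other thioredoxin genes did not pass. Txnip, which binds and inhibits thioredoxin, had −0.14 (mild) and 0.27 (severe, limma adjusted p = 0.770 and 0.364), and its wild type levels spanned 11.22 to 12.06. Txn1, the cytosolic thioredoxin, had 0.05 and −0.13. Txnrd1 and Txnrd2, the cytosolic and mitochondrial reductases, and Srxn1, which repairs overoxidized peroxiredoxins, lay between −0.13 and 0.05 in both lines. Txnrd1 and Srxn1 are textbook NRF2 targets. The level of Txnrd1 was near the median of all features (6.30 ± 0.10 in wild type, SD, n = 6).

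None of the 3 measured peroxiredoxins passed. Prdx3, the mitochondrial one, read 11.03, 11.35 and 11.41 on the mild line arrays against 11.41 to 11.65 in wild type. All 3 mild line arrays were below the wild type arrays, the highest narrowly, with a log2 fold change of −0.27 (limma adjusted p = 0.119). The severe line's value was −0.19 (adjusted p = 0.317), which passed under median scaling only (−0.35, adjusted p = 0.0219). Prdx1 and Prdx2 lay between −0.08 and 0.07. Counted over the whole set, 3 genes had all mild line arrays above the 6 wild type arrays (Nqo1, Gpx3 and Gpx4) and 2 all below (Gstk1 and Prdx3), where 3.60% and 3.92% of all features did. For the severe line Gpx1 and Gpx3 lay all above and Gstk1 all below, against 3.59% and 3.63% of all features.

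Superoxide dismutases, which turn superoxide into peroxide in the cytosol (Sod1), mitochondria (Sod2) and outside cells (Sod3), and catalase (Cat), which breaks peroxide down, did not pass in either line. Sod1 had 0.06 (mild) and −0.17 (severe, limma adjusted p = 0.830 and 0.267), and the latter passed under median scaling only (−0.32, adjusted p = 0.0429). Sod2, with its wild type level of 13.61 ± 0.16 (SD, n = 6), had −0.10 and −0.12. Cat had −0.34 in the severe line (adjusted p = 0.207), but it was also lower in that line's littermates than in the mild line's, by 0.44 (adjusted p = 0.128), and against own littermates it had −0.12 (adjusted p = 0.752).

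The genes of heme and iron did not pass in either line. Hmox1, the inducible heme oxygenase and a classical target of NRF2, had 0.13 on the log2 scale for the mild line, with an interval from −0.12 to 0.38 (limma adjusted p = 0.775), and −0.01 for the severe line, with an interval from −0.26 to 0.24 (adjusted p = 0.992). Fth1, the ferritin heavy chain, had 0.08 and 0.01. Ftl1, the light chain, had 0.34 for the mild line (adjusted p = 0.393) and 0.16 for the severe line (adjusted p = 0.752), and it differed by 0.52 between the littermates of the lines (adjusted p = 0.184). The mean of the 4 red blood cell markers above the median level, of 6 measured and 13 listed, ran from 10.84 to 11.96 in wild type, and the lines reached higher (mild 11.63 to 12.31, severe 11.53 to 12.17). All 6 had positive values in the mild line, with a median of 0.23, and Hbb-b2, a beta globin, rose there (0.62, adjusted p = 0.0255). Of the 6, 4 were positive in the severe line, with a median of 0.03 and a lowest adjusted p of 0.405. The part of blood in these values was not tested.

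The metallothioneins, small proteins that bind zinc and copper, did not pass either. Mt1 had −0.09 (mild) and −0.16 (severe, limma adjusted p = 0.910 and 0.774), and single hearts of a group differed more than that: wild type ran from 13.19 to 14.06 and the mild line from 13.26 to 13.94. Mt2 had 0.05 and −0.01, at a level near the median of all features (6.50 ± 0.18 in wild type, SD, n = 6). Of the 9 genes that passed in a line or between the lines, all have a promoter entry and 1 (Gstm5) holds the core. Of the 28 that passed in none, 24 have an entry and 8 hold it. No test was run on this difference.

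A further 103 genes of the same pathways, of which 95 were measured, give the surroundings of the set. The mild line had 7 that rose and 5 that fell, the severe line 5 and 7. These are 12.6% of the measured genes in each line, where 3.55% and 3.30% of all features passed and 6.91% and 6.40% of those above the median level. Their median log2 fold changes were 0.01 and −0.02. None of 9 partners of NRF2 and KEAP1, 7 genes of metal handling and 6 of the NADPH oxidases passed in either line or between the lines. The other thioredoxin and repair genes held most calls of any list, with 4 of 19 that rose and 2 that fell in the mild line, against 3 and 2 for the severe line. Msrb1, a selenium-containing methionine sulfoxide reductase, rose in both, by 1.03 ± 0.09 (SE, mild) and 0.71 ± 0.09 (severe, limma adjusted p = 7.4e-07 and 1.0e-04). Its mitochondrial relative Msrb2 fell in both, by 0.50 and 0.51 (adjusted p = 0.00198 and 0.00232). Selenow, a small muscle selenoprotein, rose in the mild line by 0.75 (adjusted p = 6.1e-05), against 0.18 for the severe line (adjusted p = 0.449). These 5 calls against wild type held under all 25 alternatives.

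**Figure D4:**
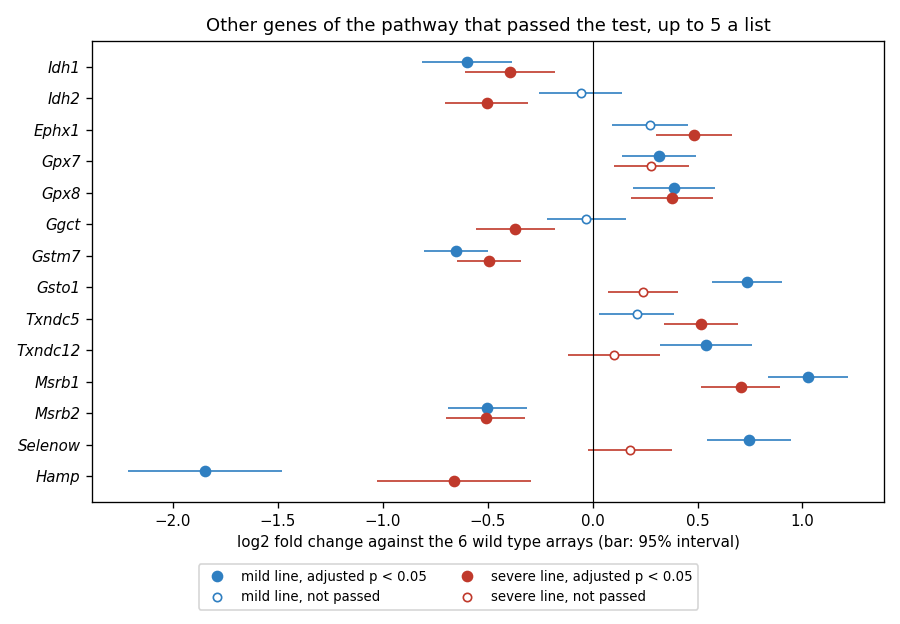
Log2 fold change (x axis) against the 6 wild type arrays of the other pathway genes that passed in a line or between the lines, up to 5 of each list by size (y axis), with 95% intervals from limma; mild line in blue, severe line in red, filled points at an adjusted p under 0.05. Msrb1 is high and Gstm7 and Msrb2 low in both lines, while Hamp lies at −1.85 for the mild and −0.66 for the severe line.

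Among the other glutathione genes, Gsto1, an omega class transferase that reduces rather than conjugates, rose in the mild line by 0.74 (limma adjusted p = 9.0e-06), against 0.24 for the severe line (adjusted p = 0.126), which passed narrowly against own littermates (0.32, adjusted p = 0.0494). Gstm7 fell in both, by 0.65 and 0.49 (adjusted p = 1.4e-05 and 3.9e-04), with all arrays of both lines below wild type. Gpx8, a peroxidase of the endoplasmic reticulum, rose by 0.39 and 0.38 (adjusted p = 0.0240 and 0.0303). The mild line's call for Gpx8 ended without its replicate 3 (0.29, adjusted p = 0.216) or against own littermates (0.41, adjusted p = 0.0587). A background offset of 16 (adjusted p = 0.117) and median scaling (adjusted p = 0.0645) also ended it. The severe line's call for Gpx8 ended without its replicate 2 or 3 or replicate 1 or 3 among the mild line's wild type hearts (0.34 to 0.37, adjusted p from 0.0553 to 0.136). It also ended against own littermates (0.35, adjusted p = 0.126), with the offset of 16 (adjusted p = 0.132), under median scaling (adjusted p = 0.197) and with the layout as a block (adjusted p = 0.173). Gpx7, its close relative, rose in the mild line by 0.32 (adjusted p = 0.0427), a call that ended on leaving out any of 8 of the 12 arrays (0.26 to 0.36, adjusted p from 0.0550 to 0.285) or with own littermates as the controls (0.24, adjusted p = 0.288). Ggct, which breaks down glutamyl amino acids, fell in the severe line by 0.37 (adjusted p = 0.0266) but not without its replicate 1 or 3 or replicate 2 among the mild line's wild type hearts (adjusted p from 0.0561 to 0.179), nor against own littermates (−0.35, adjusted p = 0.107).

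The NADPH that recycles glutathione and thioredoxin comes in part from isocitrate dehydrogenases. Idh1, the cytosolic form, fell in the mild line by 0.60 (limma adjusted p = 0.00136). The severe line's fall was 0.39 (adjusted p = 0.0399), where leaving out any of 8 of the 12 arrays ended the call (adjusted p from 0.0535 to 0.229). Idh2, the mitochondrial form, fell in the severe line by 0.50 (adjusted p = 0.00390), against −0.06 for the mild line (adjusted p = 0.890). Without the 3 arrays of the other layout its severe line value was −0.29 (adjusted p = 0.421). Ephx1, an epoxide hydrolase and NRF2 target, rose in the severe line by 0.48 (adjusted p = 0.00272) and was the only 1 of 15 further NRF2 targets to pass in a line. Its call ended under median scaling (0.35, adjusted p = 0.0557) and without those 3 arrays (0.45, adjusted p = 0.171).

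Thioredoxin-like proteins of the endoplasmic reticulum passed in 1 line each, Txndc5 higher by 0.52 in the severe line (limma adjusted p = 0.00116) and Txndc12 by 0.54 in the mild line (adjusted p = 0.00408). On the mild line arrays Txndc5 was 0.17 to 0.23 above the wild type mean. Txndc12 ran from −0.01 to 0.26 around that mean on the severe line arrays. Neither gene passed between the lines or in the difference between the effects. The call for Txndc12 ended without mild line replicate 3 (0.45, adjusted p = 0.0535) and under median scaling (0.49, adjusted p = 0.0575), and that for Txndc5 without the 3 arrays of the other layout (0.45, adjusted p = 0.0813). Park7 and Ucp3 also passed and are named beyond the 5 largest of that list, after their values were seen. Park7, a redox-sensitive chaperone, rose by 0.48 in both lines (adjusted p = 6.1e-05 and 9.5e-05), and Ucp3, a carrier of the mitochondrial inner membrane, had −0.37 and −0.48 (adjusted p = 0.0301 and 0.00585). Ucp3 ran from 6.18 to 6.54 on the transgenic arrays, near the median level of all features (6.25). The mild line's call for Ucp3 ended without its replicate 2 or 3 or replicate 2 of its littermates (adjusted p from 0.0654 to 0.172). That call also ended with a background offset of 16 (−0.57, adjusted p = 0.0619), under median scaling (−0.39, adjusted p = 0.0624) and with the layout as a block (−0.36, adjusted p = 0.0512). The severe line's call ended without its replicate 3 (−0.41, adjusted p = 0.0577).

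Hamp, which encodes the iron hormone hepcidin, had the largest change among the pathway genes. Its wild type arrays ran from 10.10 to 10.60, the mild line arrays read 8.65, 8.01 and 8.83, and the severe line arrays 9.19, 10.12 and 9.74. It fell in the mild line by 1.85 ± 0.17 (SE, limma adjusted p = 1.9e-06), and the mild line lay below the severe line by 1.19 (adjusted p = 0.00434). The difference between the effects against own littermates was −1.30 and did not pass, except without severe line replicate 1 (−1.55, adjusted p = 0.0112). The severe line, whose arrays overlapped wild type, had −0.66 (adjusted p = 0.0446), a call that ended on leaving out any of 8 of the 12 arrays (−0.69 to −0.41, adjusted p from 0.0517 to 0.356), against own littermates (−0.60, adjusted p = 0.173) and, counting these, in 18 of 25 alternatives. No other gene of 10 measured for iron handling passed in a line or between the lines, while Tfrc, the transferrin receptor, was lower in the mild line's littermates than in the severe line's (−0.63, adjusted p = 0.0372).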

How the data were processed

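Illumina MouseWG-6 v2.0 bead arrays were used for total RNA of 12 hearts. The authors' deposited array files hold 1 raw bead intensity per probe, and the deposited value table holds log2 values after the authors' background correction and quantile normalization. Per the labels, GenomeStudio and limma were used, without versions; background subtraction on export is not given in the sources used here. From the raw intensities of 45281 probe IDs, 6 blank lines were left out, the background was corrected by normexp (offset 50, since neqc needs detection p-values not used here), followed by quantile normalization and log2. Where IDs had the same values on every array they were merged, which left 30854 features. Gene symbols came from the platform annotation: 34885 IDs had 1 symbol, 18 several and 10378 none, and none was named from an ID with several. The number of unused columns of per-sample values was 0. Limma 3.58.1 in R 4.3.3 fitted 3 group means (wild type n = 6, lines n = 3), and 4 group means for the littermates and for the difference between the effects. The call was a Benjamini-Hochberg adjusted p under 0.05 over all features at any fold. The study's rule asks for a 2-fold change and either that adjusted p or an unadjusted p under 0.001. The fit was tested on simulated data. Genes, lists and alternatives were chosen with earlier results of these data known. Values per array are given for genes of the set that passed, and up to 5 others per list are named by size. P-values measure only the spread between the samples of a group, whose number limits the precision. Alternatives covered background, scaling, the authors' table, a level filter, variance models, averaged or unmerged IDs, array weights, own littermates, replicate block and each array left out. File layout alternatives were added after seeing the data.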

Additional observations from a re-analysis of the deposited data

Results flagged for a closer look

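The change of Nqo1 against own littermates differed between the lines by 0.98 on the log2 scale (limma adjusted p = 0.00228), from 1.07 (mild) to 0.08 (severe). That of Gpx3 differed by −0.83 (adjusted p = 0.00131), from 0.21 (mild) to 1.04 (severe). In the wild type hearts, Mgst1 had 1 value that stood apart, 8.17 in replicate 2 of the mild line's littermates, where the next was 7.98 and the lowest 7.89. The gap took 0.69 of the range. It was the only such value among 41 features tested in wild type, fewer than the about 1 in 20 that chance gives.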

How the results depend on the processing

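Of 44 called values of single genes, 19 kept call and direction under all alternatives and none changed sign. Of 184 that were not called, 11 passed under at least 1 alternative and 89 changed sign. The genes of the set called were 3 in the mild line, 6 in the severe line, 5 between the lines, 0 between littermates and 2 in the difference between effects. With a background offset of 16 these were 2, 2, 2, 0 and 0, and the differences for Nqo1 and Gpx3 just missed (limma adjusted p = 0.0513 and 0.0577). Against own littermates 2 passed in the severe line. With the file layout as a block, chosen after seeing the data, 2 passed in the severe line and 3 between the lines. Without its 3 arrays it was 3, 2 and, between littermates, 1. That left 1 severe line array, assumed to vary like the others. Leaving out 1 array gave 2 to 3 in the mild line, 2 to 8 in the severe line, 2 to 6 between the lines, 0 to 0 between littermates and 2 to 2 in the difference.

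The replicate numbers did not pair the arrays, with correlations of same-numbered deviations from −0.36 to 0.10, and 1 of 6 numbers matched best with itself. With the replicate block 3 genes passed for the mild line and 4 for the severe line, each against its own littermates, and 3 between the lines (Gstm5 and Txn2 then missed, limma adjusted p = 0.0547 and 0.0522).

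Over all features, 1096 passed in the mild line: 620 with offset 16, 2068 with every probe ID counted, 721 against own littermates, 621 with the replicate block too, and 623 to 1071 with 1 array left out. In the severe line 1019 passed, and under those settings 493, 1962, 716, 534 and 491 to 1090, with 596 under the layout block and 275 without its 3 arrays. Between the lines 422 passed, with 169 (offset 16), 723 (every ID), 138 (layout block), 104 (without its arrays) and 196 to 486. Between littermates 27 passed, with 0 (offset 16), 17 (median scaling), 14 (features averaged), 8 (replicate block), 1 (layout block), 10 (without its arrays) and 1 to 32. In the difference 82 passed, with 38 (offset 16), 50 (median scaling), 135 (every ID) and 59 to 85. The cause of these changes was not tested.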

Other observations

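Several of the genes that rose encode selenoproteins, and the 24 selenoproteins of the mouse, all measured, were therefore listed after the values had been seen. Their count restates what prompted the list, and no test was run on it. The 4 that rose in the mild line were Gpx3, Gpx4, Msrb1 and Selenow. Those in the severe line were Gpx1, Gpx3, Msrb1 and Selenom, the last by 0.29 (limma adjusted p = 0.0363). The dimmer feature of Selenom, below the median level, had 0.03 there (adjusted p = 0.795). The 4 are 16.7% of the list in each line. Of all features 3.55% (mild) and 3.30% (severe) passed, and of those above the median level 6.91% and 6.40%. The other 20 in each line did not pass, and the median over the list was 0.04 in both lines.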
